A study of Mus musculus with 48 samples.

Results

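The circadian clock genes described here are 10 genes of the molecular clock, namely Arntl (also called Bmal1), Clock, Nr1d1, Nr1d2, Dbp, Tef, Per1, Per2, Per3 and Noct. They were taken by gene symbol from a table of 29801 genes measured by RNA sequencing in whole mouse tibia. Each symbol occurred in exactly 1 row, and all 10 averaged 1 FPKM or more, as did 13590 genes of the table, which were the genes tested. The mice were male C57Bl6J, either young or aged (15 to 18 months) at the start of the diets, and received food ad libitum (AL) or caloric restriction (CR) for 8 weeks. The labels give the young mice as 10 weeks old, and the study's methods give a range of ages around this at the start of CR. CR began at 10% in the first week, went to 20% in the second and stayed at 40% thereafter, on a diet fortified with micronutrients. There were 3 mice in each of the 4 groups: young AL (mice 9, 10 and 11), young CR (1, 2 and 3), aged AL (13, 14 and 15) and aged CR (5, 6 and 7).

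The clock is a feedback loop of transcription that runs in nearly every cell of the body. CLOCK and ARNTL bind E-boxes together and switch on the Per and Cry genes, whose proteins return to the nucleus and shut their own transcription off. A second loop, through the nuclear receptors REV-ERBα and REV-ERBβ (Nr1d1 and Nr1d2), represses Arntl, and the bZIP factors DBP and TEF carry the rhythm to output genes through D-boxes. Feeding time and glucocorticoids both act on clocks outside the brain, and Per1 is a gene that glucocorticoids induce directly. In bone, clock factors are known in osteoblasts, osteoclasts and marrow cells.

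The level of a clock gene depends on the hour at which tissue is taken. According to the study's methods, mice were kept in a cycle of light and dark and CR mice were fed just before the dark period. The sources used here give no hour of tissue collection for any group, so a change in level and a shift in time cannot be told apart, and neither can fewer cells of a type and less RNA per cell in a whole bone. The study also included mice with an operated tibia, and the labels do not say whether any sequenced tibia was among them. Each mouse carries 4 technical repeat libraries in the labels and a single column in the table, so the mouse was the replicate, and the labels do not tie mice to litters or batches. By the study's methods, the mice were caged singly from before CR began.

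The short stretches of sequence printed next, 1 for each of 4 genes, show where the loop's binding motifs lie in genes whose windows held one. Tef also held one and is not printed. They come from RefSeq on GRCm38.p6, read 5′ to 3′ on the strand of the gene, with the motif in capitals. The Per1 stretch lies on chr11:69098699-69098948 (plus strand), the Nr1d1 stretch on chr11:98775378-98775627 (minus strand) and the Per3 stretch on chr4:151044666-151044915 (minus strand), and each holds the 250 bases before a transcription start. The Arntl stretch, chr7:113207530-113207559 (plus strand), holds bases 20 to 49 after a start.

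Per1: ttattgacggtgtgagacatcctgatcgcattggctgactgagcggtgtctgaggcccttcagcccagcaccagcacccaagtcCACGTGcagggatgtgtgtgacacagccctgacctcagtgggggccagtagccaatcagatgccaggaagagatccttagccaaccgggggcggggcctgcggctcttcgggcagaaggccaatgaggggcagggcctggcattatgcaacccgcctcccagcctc

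Nr1d1: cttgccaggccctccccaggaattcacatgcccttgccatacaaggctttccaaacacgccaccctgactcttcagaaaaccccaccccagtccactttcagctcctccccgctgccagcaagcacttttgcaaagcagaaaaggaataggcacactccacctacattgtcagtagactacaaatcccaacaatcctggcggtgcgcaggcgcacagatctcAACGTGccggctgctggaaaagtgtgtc

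Per3: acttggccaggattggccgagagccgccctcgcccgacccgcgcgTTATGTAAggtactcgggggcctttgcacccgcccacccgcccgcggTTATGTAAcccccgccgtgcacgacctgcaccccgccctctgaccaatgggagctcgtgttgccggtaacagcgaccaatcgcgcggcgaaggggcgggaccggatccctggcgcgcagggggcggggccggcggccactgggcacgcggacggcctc

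Arntl: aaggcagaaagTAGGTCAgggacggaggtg

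Both strands of every promoter window were searched, each reaching from 250 bases before to 50 bases after a start. Of the 10 genes, 9 matched a window (14 windows in all), and Per2 matched none. The E-box was spelled CACGTG, with CACGTT allowed as a second spelling. It was in the windows of 3 of the 9 genes, namely Per1 at 166 to 161 bases before the start, Tef in both of its windows, and Nr1d1 with the second spelling, read on the opposite strand, at 28 to 23 bases before the start. Of all 32851 windows, 7.15% held the first spelling and 11.4% held either. This share and those below are by window, while the clock genes are counted by gene, and some of them have more than 1 window. The D-box TTATGTAA occurred in Per3 alone among the 9, at 205 to 198 and at 158 to 151 bases before the start, against 0.938% of all windows, and no second spelling (TTACGTAA) was found. The core of the element that REV-ERB and ROR receptors share, TAGGTCA, occurred in Arntl alone, at 31 to 37 bases after a start, against 2.61% of all windows, and 6.45% with TGGGTCA allowed. The cAMP response element TGACGTCA, in 1.79% of all windows, was in none of these 14. These matches are descriptions of the letters in these windows.

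By level per transcript length, averaged over the 12 mice, the order was Tef at 9.80 FPKM, Noct 7.51, Dbp 6.82, Nr1d2 6.26, Per1 6.22, Nr1d1 4.57, Per3 2.73, Arntl 2.71, Per2 1.77 and Clock 1.40. FPKM are sequenced fragments scaled by transcript length and by library size, here quantile-normalized by the authors so that every mouse has the same set of values. Between neighbours in this order, only the steps from Nr1d1 to Per3 and from Per2 to Clock were wider than the larger SD of the pair over the 12 mice. All 10 lay well below the top of the table: 6078 genes had a higher mean than Tef and 12765 a higher mean than Clock. Per1 varied most between mice, with a highest value 4.50 times the lowest, and Nr1d2 varied least, at 1.62 times.

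No clock gene passed an adjusted p of 0.05 in any comparison of the limma fit, which was made over all 13590 genes on log2(FPKM + 1) values with Benjamini-Hochberg adjustment. This was 0 of 10 for CR against AL in young mice (0.0662% of all genes called), 0 of 10 in aged mice (0% of all genes), 0 of 10 for diet over both ages (0.258%), 0 of 10 for age over both diets (0.758%) and 0 of 10 for the interaction of diet and age (0%). At an unadjusted limma p under 0.05, the counts were 2 of 10 in young mice (all genes 11%), 2 of 10 in aged mice (7.72%), 3 of 10 for diet (13.9%), 2 of 10 for age (16.6%) and 0 of 10 for the interaction (4.23%). An unequal-variance test on FPKM, adjusted in the same way, also called 0 of 10 in young and 0 of 10 in aged mice. The clock genes did not move one way as a list: their median log2 difference for diet was 0.06, with 6 positive and 4 negative, beside 0.00 over all genes, and for age it was 0.06, with 7 positive and 3 negative, beside -0.02. The largest differences lay in Per1, Nr1d1, Arntl and Noct.

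**Figure D1:**
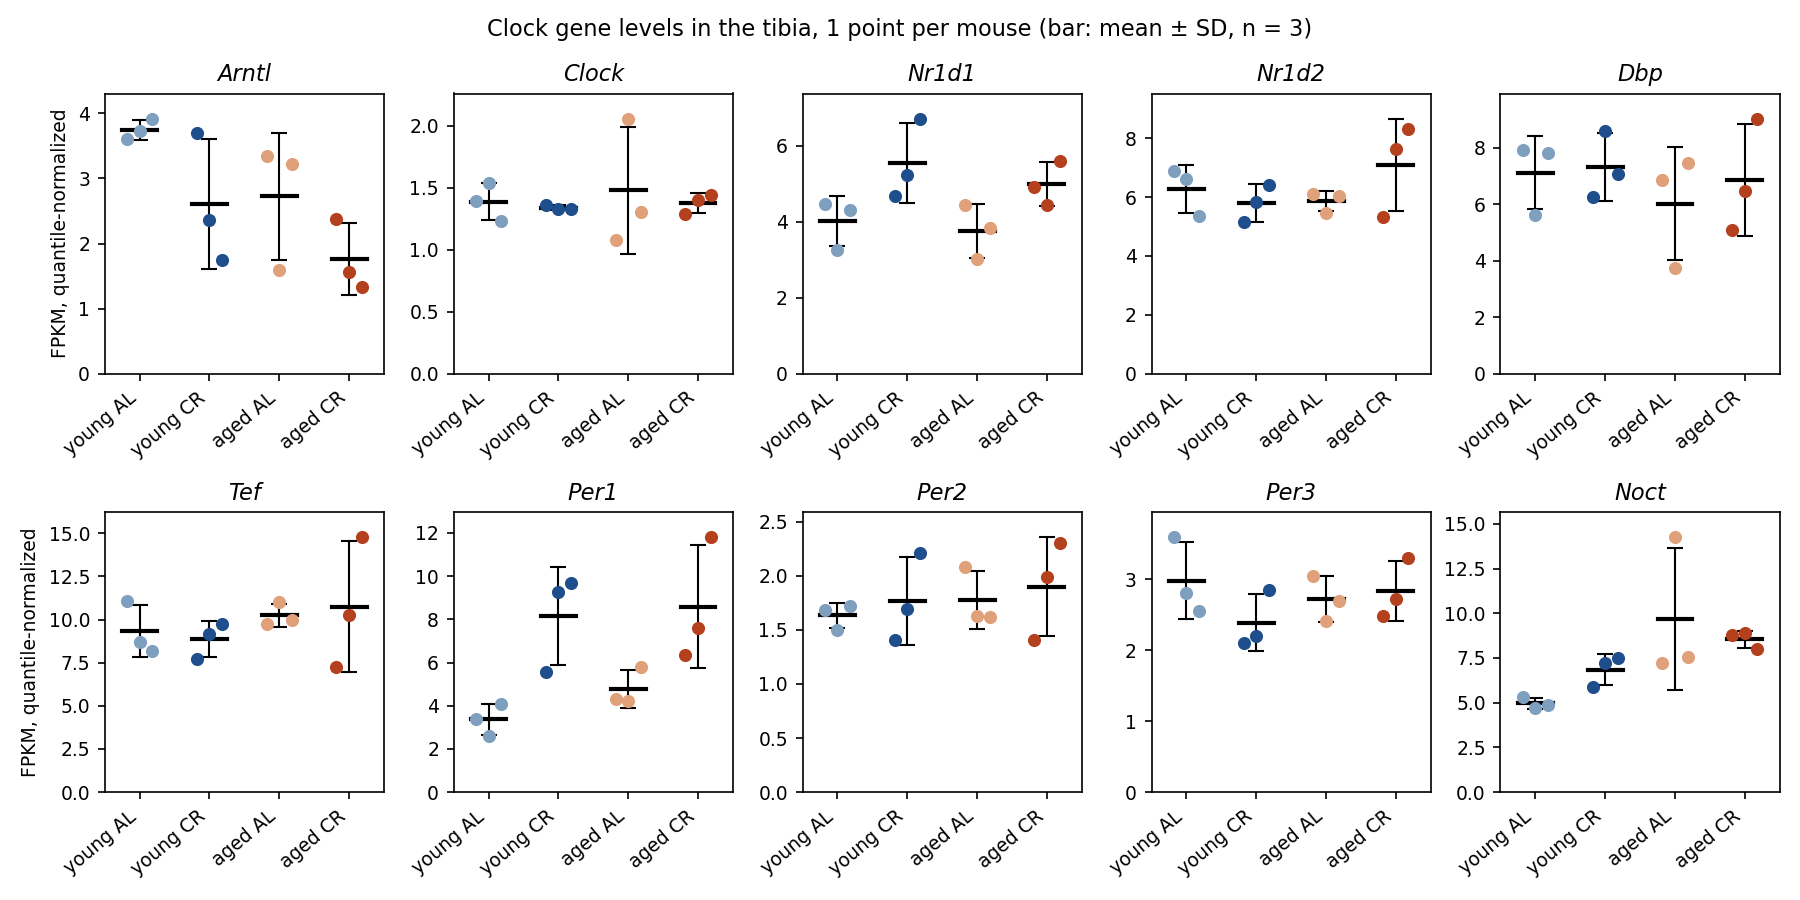
Quantile-normalized FPKM (vertical axes, starting at 0) of the 10 clock genes in each mouse, by group (horizontal axes), with bars for the mean ± SD of 3 mice. Per1 and Nr1d1 lay higher in every CR mouse than in every AL mouse of the same age. Arntl, Clock, Nr1d2, Dbp, Tef, Per2 and Per3 overlapped between diets at both ages, and Noct in aged mice only.

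Of the Per genes, the repressors of the loop, Per1 differed most with diet. Per1 lies on chromosome 11 (69095217-69109960, plus strand, GRCm38). Its level was 3.39, 2.62 and 4.08 FPKM in young AL mice 9, 10 and 11 and 5.54, 9.25 and 9.67 in young CR mice 1, 2 and 3. In aged mice it was 4.30, 4.21 and 5.79 under AL (13, 14 and 15) and 6.37, 7.61 and 11.8 under CR (5, 6 and 7). The groups did not overlap at either age, and the group means were 3.36 ± 0.73 and 8.15 ± 2.27 FPKM in young mice and 4.77 ± 0.89 and 8.59 ± 2.84 in aged mice (SD, n = 3 each). On the log2(FPKM + 1) scale, which understates the change of low genes, the difference of CR from AL was 1.05 in young mice (SE 0.23, limma adjusted p = 0.162) and 0.70 in aged mice (SE 0.23, adjusted p = 0.521). Over both ages it was 0.88 (SE 0.17, limma adjusted p = 0.0579), the smallest adjusted p of any clock gene and place 57 by p among the 13590 genes. With aged CR mouse 5 left out, the adjusted p was 0.0244, and Per1 would then be called. Mouse 5 had the lowest Per1 of the aged CR mice, so leaving it out widens the difference, and leaving out any other single mouse did not call Per1. Over all fits the limma adjusted p for diet ran from 0.0107, with quality weights per mouse, to 0.156. The effect did not differ detectably between the ages, the interaction being -0.34 with a 95% interval of -1.07 to 0.39.

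Per2 and Per3, the other Per genes, showed no such separation. Per2 (chromosome 1, 91415982-91459324, minus strand) ranged from 1.50 to 1.72 FPKM in young AL, 1.41 to 2.21 in young CR, 1.62 to 2.09 in aged AL and 1.40 to 2.30 in aged CR mice. Its difference for diet was 0.06 on the log2 scale, with a 95% interval of -0.16 to 0.28, which leaves out a change of the size seen for Per1. Per3 (chromosome 4, 151003652-151044665, minus strand), whose promoter holds the pair of D-boxes printed above, was 3.59, 2.80 and 2.55 FPKM in young AL and 2.11, 2.20 and 2.85 in young CR mice. In aged mice it was 3.05, 2.41 and 2.70 under AL and 2.48, 2.72 and 3.30 under CR. The groups overlapped at both ages, and its difference for diet was -0.09 (95% interval -0.30 to 0.11). Per3 lies wholly within Camta1 on the same strand, so reads could be shared between these genes.

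Nr1d1 (chromosome 11, 98767932-98775333, minus strand), the repressor of Arntl, was the other gene whose groups did not overlap at either age. Its level was 4.47, 3.26 and 4.30 FPKM in young AL mice and 4.67, 5.24 and 6.70 in young CR mice. Aged AL mice had 4.44, 3.02 and 3.82 FPKM and aged CR mice 4.91, 4.45 and 5.60. Every CR mouse was above every AL mouse of its age, but in aged mice only by 0.016 FPKM, between CR mouse 6 and AL mouse 13. The difference for diet was 0.36 (SE 0.11, limma adjusted p = 0.171), with 0.38 in young and 0.34 in aged mice. The end of Nr1d1 overlaps Thra on the opposite strand over 1075 bases, and the library kit keeps strand, but the sources used here do not say whether the counting did. Its paralog Nr1d2 (chromosome 14, 18204054-18239127, minus strand) did not follow it. Nr1d2 ranged from 5.35 to 6.88 FPKM in young AL, 5.14 to 6.43 in young CR, 5.46 to 6.10 in aged AL and 5.33 to 8.32 in aged CR mice. The groups overlapped at both ages, and the difference for diet was 0.06 (95% interval -0.16 to 0.28).

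Lying apart in the upward direction was thus found for 3 of 10 clock genes in young mice (Per1, Nr1d1 and Noct), against 10.1% of all genes, and for 2 of 10 in aged mice, against 5.7%. Both ages together gave 2 of 10, against 1.53% of all genes. Downward with CR, 0 of 10 lay apart in young mice (9.38% of all genes) and 0 of 10 in aged mice (5.33%). Adipocyte markers, a list of 10 genes of which 9 were tested, were also higher with CR: their summed level was 332 to 371 FPKM in young AL, 623 to 841 in young CR, 324 to 586 in aged AL and 621 to 1019 in aged CR mice. For diet, 3 of these 9 were called, all higher, with Lpl (lipoprotein lipase) at 0.76 (limma adjusted p = 0.00316). The part of these cells in the levels of Per1 and Nr1d1 was not tested.

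**Figure D2:**
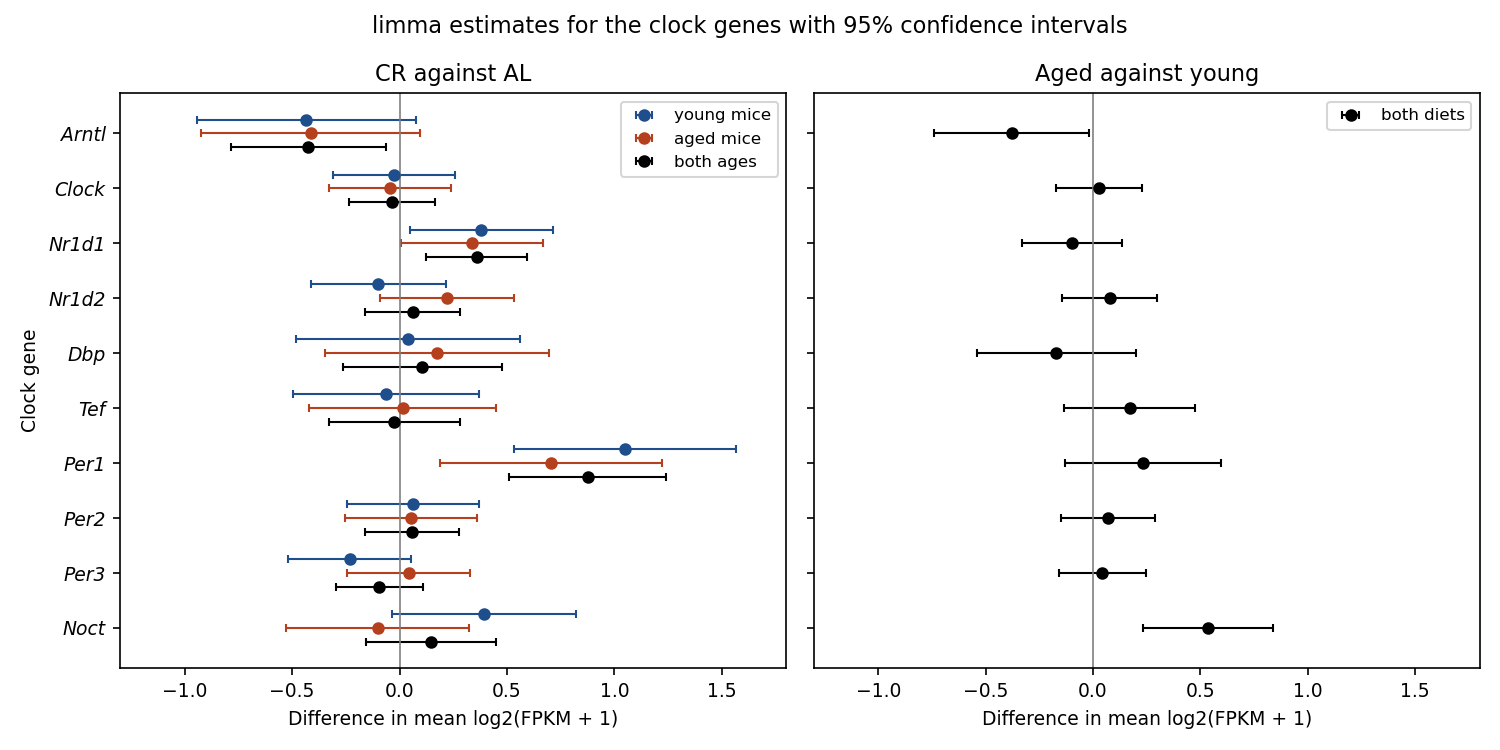
limma estimates for each clock gene, as differences in mean log2(FPKM + 1) (horizontal axis) with 95% confidence intervals, for CR against AL (left) in young mice, in aged mice and over both, and for aged against young over both diets (right). For diet over both ages, the intervals of Per1, Nr1d1 and Arntl do not reach 0, and for age those of Arntl and Noct do not; these intervals are not adjusted for the number of genes.

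Arntl, the activator of the loop, had negative differences for diet and for age. It lies on chromosome 7 (113207465-113314126, plus strand). Young AL mice had 3.61, 3.73 and 3.91 FPKM and young CR mice 3.70, 2.36 and 1.75. Aged AL mice had 3.35, 1.59 and 3.23 FPKM and aged CR mice 2.38, 1.56 and 1.33. Young AL mice were close together, and the other groups were spread, with CR mouse 1 at the level of the young AL mice and AL mouse 14 at that of the aged CR mice, so that CR and AL overlapped at both ages. The difference for diet was -0.42 (SE 0.16, limma adjusted p = 0.284) and was -0.43 in young and -0.41 in aged mice. With AL mouse 14 and CR mouse 5 of the aged groups left out, the difference for diet was -0.62 with an adjusted p of 0.0375. This pair was left out because an earlier analysis of these data had set it apart, and since mouse 14 had the lowest Arntl of its group and mouse 5 the highest, leaving them out widens the difference. Without mouse 14 alone the adjusted p was 0.0946, and in the other fits it reached 0.49.

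Clock (chromosome 5, 76209868-76304792, minus strand), the partner of ARNTL, had the lowest level of the 10. It ranged from 1.24 to 1.53 FPKM in young AL, 1.33 to 1.36 in young CR and 1.29 to 1.44 in aged CR mice. Aged AL mice had 1.08, 2.06 and 1.30 FPKM, and mouse 14 was thus the highest of the 12. The difference for diet was -0.04 (95% interval -0.24 to 0.17). The retrocopy Ube2n-ps1, with a mean of 27.5 FPKM, lies within Clock on the same strand, so its reads may not be wholly its own.

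Markers of B cells moved in part with Arntl. The 8 listed B cell genes summed to 276, 240.0 and 295.0 FPKM in young AL mice 9, 10 and 11 and to 182, 162 and 143 in young CR mice 1, 2 and 3. In aged mice the sums were 208, 80.7 and 279 under AL and 120, 144 and 156 under CR. The aged AL mouse with low Arntl, mouse 14, had the lowest sum of all. The mice with the highest Arntl in each AL group were not always those with the highest sum. Among aged CR mice the order was reversed, with Arntl highest and the sum lowest in mouse 5, and the opposite in mouse 7. By a Pearson correlation of log2 values over the 12 mice, given as a description, the 8 genes most like Arntl were Myl4 (0.97), Gm37065, Cplx2, Spns3, Sox4, Dntt (0.94), Gm5914 and Vhl (0.94). With group means removed, 1 of these 8 was still among the 8 most like Arntl, namely Myl4. With aged AL mouse 14 and aged CR mouse 5 left out, 7 of these 8 still were. Dntt, which encodes the terminal transferase of lymphoid progenitors, was among the 8 in neither case. All 8 B cell genes had negative differences for diet (median -0.50) and for age (median -0.37), and 0 of 8 were called in limma for either, with 3 of 8 at an unadjusted p under 0.05 in each. None of the 8 was at 0 in any mouse, and the part of B cells in the level of Arntl was not tested.

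Of the genes that the loop drives, Dbp and Tef did not separate the groups. Dbp (chromosome 7, 45705088-45710203, plus strand), which sits directly under CLOCK and ARNTL in liver and other tissues, was 7.92, 5.61 and 7.80 FPKM in young AL mice and 6.24, 8.60 and 7.08 in young CR mice. Aged AL mice had 6.86, 3.75 and 7.46 FPKM and aged CR mice 5.07, 6.47 and 9.02. The spread within groups covered all differences between them, and the difference for diet was 0.11 (95% interval -0.26 to 0.48). Dbp shares 737 bases with Sphk2 on the opposite strand. Tef (chromosome 15, 81802421-81826863, plus strand), a bZIP factor of the same family, was 8.20 to 11.1 FPKM in young AL, 7.70 to 9.76 in young CR, 9.76 to 10.999 in aged AL and 7.22 to 14.8 in aged CR mice. The highest and the lowest Tef of the 12 mice were both in the aged CR group, and the difference for diet was -0.02 (95% interval -0.33 to 0.28).

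Noct (chromosome 3, 51224447-51251644, plus strand) encodes nocturnin, an NADP(H) phosphatase with rhythmic mRNA that is known for promoting marrow fat over bone. It was 5.31, 4.68 and 4.88 FPKM in young AL and 5.88, 7.19 and 7.47 in young CR mice. Aged AL mice had 7.22, 14.2 and 7.57 FPKM and aged CR mice 8.77, 8.87 and 8.01. Aged mice lay above all young mice of the same diet under AL and under CR alike, and young CR mice lay above young AL mice, while CR and AL overlapped in aged mice, where AL mouse 14 alone stood above the CR mice. The difference for age was 0.54 (SE 0.14, limma adjusted p = 0.105), and without mouse 14 it was 0.39 with an adjusted p of 0.0312. For CR against AL, Noct differed by 0.39 in young mice (adjusted p = 0.492) and by -0.10 in aged mice (adjusted p = 0.943), and the interaction of -0.49 had an unadjusted limma p of 0.0986. The aged value rests on mouse 14: without it the difference in aged mice was 0.19 (adjusted p = 0.726) and the interaction -0.21.

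With age, 3 clock genes lay apart under AL. Per1 and Noct were higher in all aged than in all young AL mice (2 of 10, against 5.59% of all genes), and Arntl was lower (1 of 10, against 7.65%). Under CR only Noct lay apart, upward (1 of 10, against 7.9%), and none downward (0 of 10, against 10.6%). Over both diets Arntl differed by -0.38 with age (SE 0.16, limma adjusted p = 0.279) and Per1 by 0.23 (adjusted p = 0.512). The tibiae were cleaned of muscle before freezing, and skeletal muscle markers summed to 216 to 424 FPKM in young AL, 169 to 529 in young CR, 392 to 1222 in aged AL and 176 to 1030 in aged CR mice. All 11 tested muscle genes had positive differences for age (median 0.78), 0 of 11 were called in limma and 2 were at an unadjusted p under 0.05. Their part in the levels of Noct, Per1 and Arntl was not tested.

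**Figure D3:**
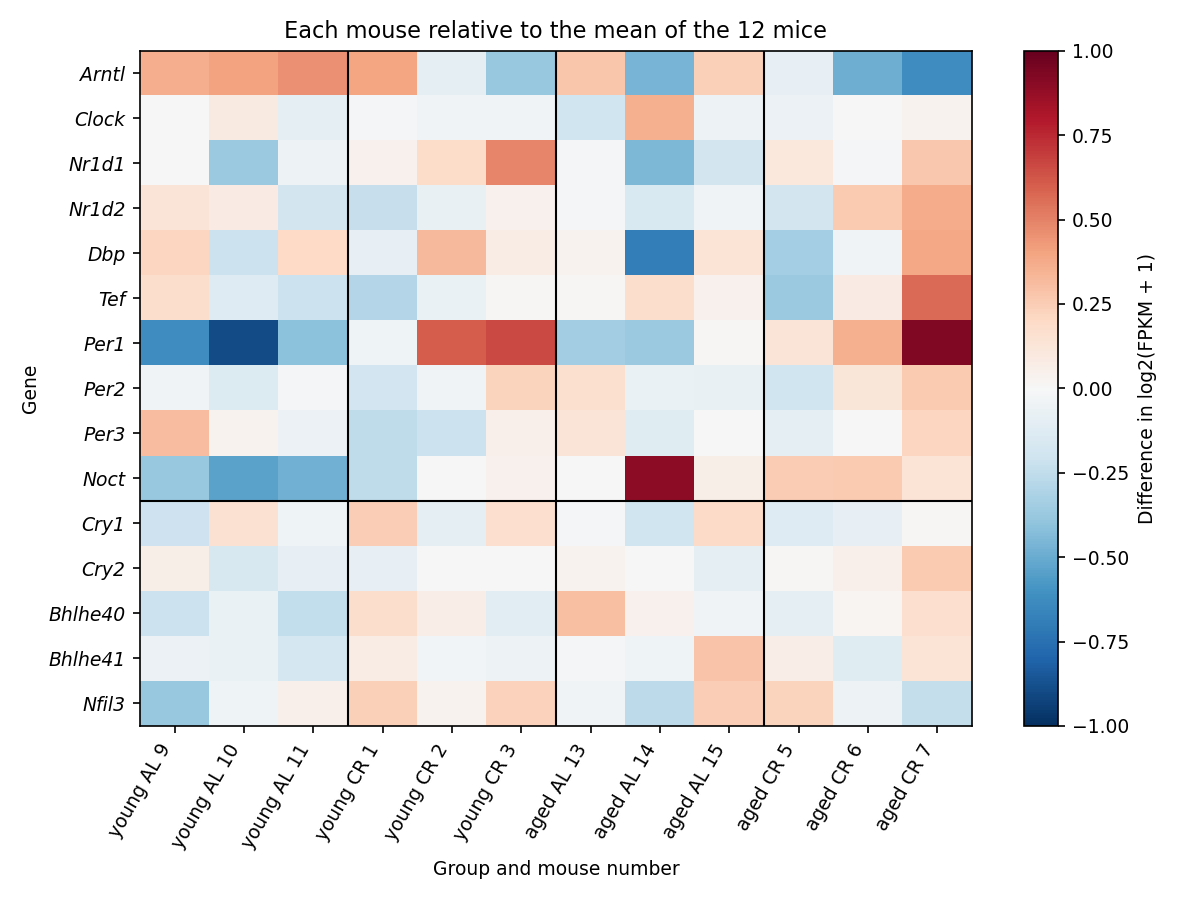
Each mouse's log2(FPKM + 1) minus the mean of the 12 mice (colour) for the 10 clock genes and, under the line, the 5 other loop factors that passed the filter; columns are mice by group. Aged CR mouse 7 is high in Per1, Tef, Dbp, Nr1d2 and Per2 and low in Arntl, and aged AL mouse 14 is low in Dbp and high in Noct.

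Many of the extreme values came from single mice. Aged CR mouse 7 had the highest value of the 12 mice in 5 of 10 genes (Tef, Dbp, Nr1d2, Per1 and Per2) and the lowest Arntl. Aged AL mouse 14 had the extreme value in 4 of 10, with the lowest Dbp and Nr1d1 and the highest Noct and Clock. Mouse 14 also had the highest sum of skeletal muscle markers (1222 FPKM, with mouse 7 next at 1030), the lowest sum of bone cell markers (798 FPKM) and the lowest limma quality weight (0.26), and the part of these in its clock gene levels was not tested. No other mouse held more than 2 extremes. Aged CR mouse 5 had the lowest Tef and Per2, so the aged CR group spanned both ends for these genes.

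Correlations over the 12 mice are given as descriptions, and the mice share groups. Arntl correlated at -0.76 with Noct, -0.72 with Per1, -0.56 with Tef and -0.55 with Per2, and with group means removed at -0.76, -0.46, -0.66 and -0.51. Aged AL mouse 14 had the lowest Arntl and the highest Noct of its group, so the value for Noct with group means removed leans on this mouse. Ranked from the most opposed of 13589 genes, Noct stood at place 190 and Per1 at place 315 for Arntl. Among the clock genes, Dbp correlated at 0.59 with Nr1d1 (place 575 from the top) and correlated at 0.42 with Per1, 0.47 with Per2 and 0.31 with Tef, and at -0.63 with Clock. With group means removed the correlation with Per1 was 0.74 and that with Nr1d1 0.67. With the same pair of mice left out, Dbp correlated at -0.15 with Clock, so that value rests on these mice, and at 0.57 with Tef, 0.53 with Per1 and 0.50 with Nr1d1. The 8 genes most like Dbp were Lmo7 (0.93), Mxd4, P3h3, Ptgis, Mfge8, Dab2ip, Maged1 and Wdr86 (0.86), none of them a clock gene. This list also rests on these mice, since without them 0 of the 8 were among the 8 most like Dbp.

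Per1 was compared in the same way after its values had been seen. The gene most like it of all 13589 was Fkbp5 (0.92), the glucocorticoid-induced cochaperone of the glucocorticoid receptor. It was followed by Ddit4 (0.92), an inhibitor of mTORC1, 8430408G22Rik, Galnt15, Ints3, Pnpla2, Tsc22d3 (GILZ) at place 7 (0.91) and Podn (0.91). With group means removed, 0 of these 8 were still among the 8 most like Per1, with Fkbp5 at place 23 and Tsc22d3 at place 49. With aged AL mouse 14 and aged CR mouse 5 left out, 2 of these 8 still were, Ddit4 and Fkbp5. Fkbp5 was 7.48, 9.50 and 10.2 FPKM in young AL mice, 12.8, 23.3 and 33.0 in young CR mice, 9.78, 10.0 and 12.5 in aged AL mice and 12.4, 22.3 and 26.0 in aged CR mice. Within both CR groups the mouse with the lowest Per1 also had the lowest Fkbp5, mouse 1 among the young and mouse 5 among the aged, and within neither AL group did it. Of 13 tested genes on a list of glucocorticoid responders, 1 was called for diet in limma, Sult1a1 (1.05, adjusted p = 0.0465), 12 had positive differences and the median was 0.30. On that list Fkbp5 differed by 0.98 for diet (adjusted p = 0.0844), Ddit4 by 1.05 (adjusted p = 0.0816) and Tsc22d3 by 0.80 (adjusted p = 0.0844). By age, 12 of the 13 were positive in young mice (median 0.41) and 9 of 13 in aged mice (median 0.12). The interaction was negative in 11 of 13 (median -0.25), with 0 called.

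**Figure D4:**
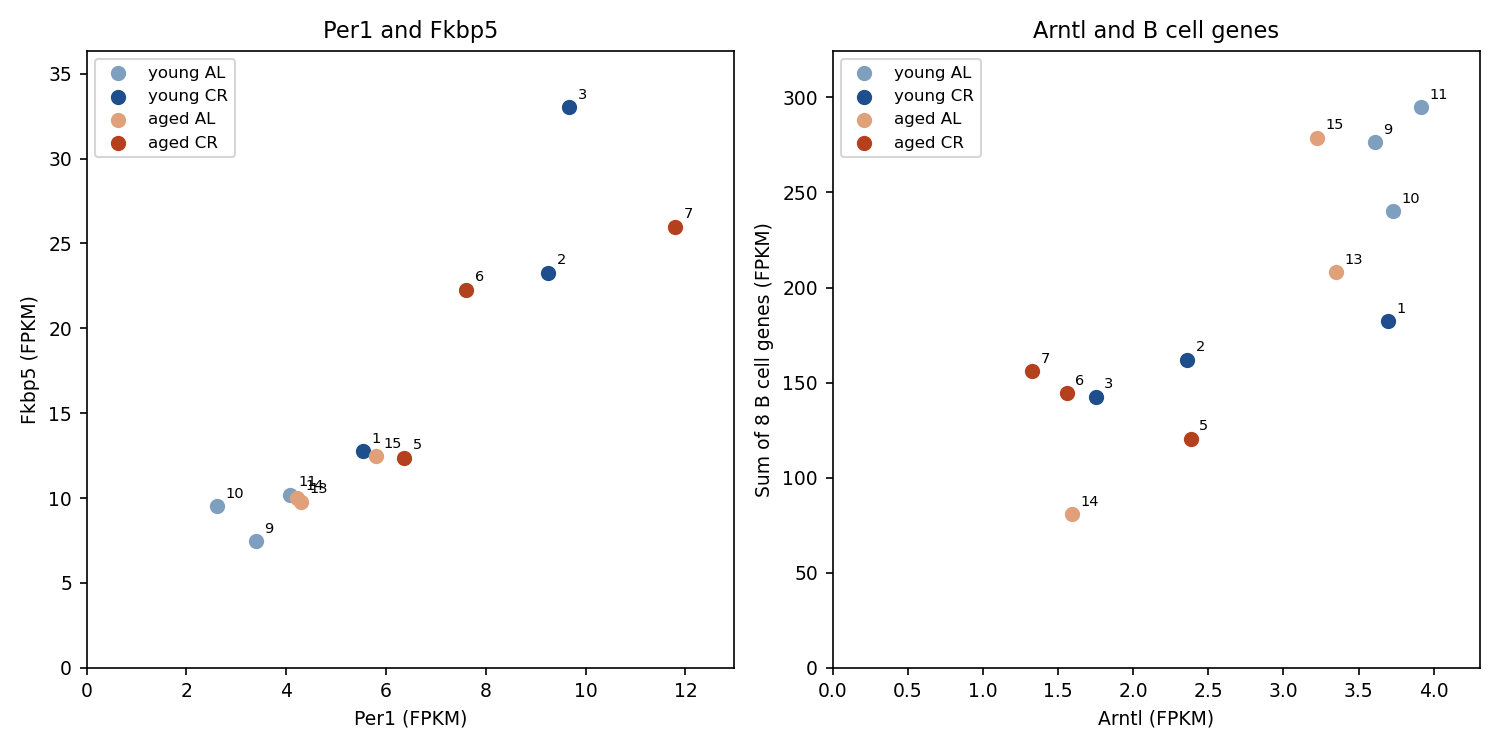
Left, FPKM of Per1 (horizontal) and Fkbp5 (vertical) in each mouse; right, FPKM of Arntl (horizontal) and the summed FPKM of 8 B cell genes (vertical). Points are mice, numbered and coloured by group: young CR mouse 1 and aged CR mouse 5 lie near the AL mice in Per1 and Fkbp5, and aged AL mouse 14 lies lowest in the B cell sum, at 80.7 FPKM.

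The rest of the loop was low in the tibia or was not called. Of 12 other loop factors, 7 fell under the filter, among them Npas2 (a paralog of Clock), Arntl2, Ciart, Hlf and the receptors Rora and Rorb, which activate Arntl at the element that REV-ERB represses. Rorb was listed at 0 in all 6 young mice. The other 5, the repressors Cry1, Cry2, Bhlhe40 and Bhlhe41 and the D-box repressor Nfil3, gave 0 of 5 called for diet in limma and 0 at an unadjusted p under 0.05, with differences from 0.03 for Bhlhe41 to 0.14 for Nfil3. Cry1 averaged 3.85 ± 0.61 FPKM in young AL and 4.34 ± 0.65 in young CR mice, and 3.94 ± 0.68 and 3.72 ± 0.23 in aged AL and aged CR mice (SD, n = 3 each).

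Genes that set the stability of clock proteins also did not pass the test. Of 8, all but Fbxl21 were tested, and 0 of 7 were called in any of the 5 comparisons. For diet, Csnk1d and Csnk1e, the kinases that mark PER proteins for removal, differed by -0.07 and -0.09. Of the 7, 6 were negative for diet, and 1 was lower at an unadjusted limma p under 0.05 (all genes 13.9% in either direction). At that threshold 1 was higher in young mice (11%), 1 lower for age (16.6%) and 1 lower for the interaction (4.23%). In aged mice all 7 were negative, with 0 at that threshold (7.72%). Of 6 genes with rhythmic expression in many tissues, 0 were called for diet and 1, Tsc22d3, was at an unadjusted p under 0.05.

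The tissue was bone with its marrow: all 11 bone cell markers passed the filter, with a sum of 798 to 2938 FPKM, and 8 erythroid genes made up 29.3% to 29.4% of all FPKM. That share cannot vary much between mice, because quantile normalization gives the top ranks the same values in every mouse. Bone cell markers had negative differences for age (median -0.36, all 11 negative, 0 of 11 called and 5 at an unadjusted p under 0.05). Of 9 neutrophil genes, all were negative for age (median -0.30), 0 were called and 3 were at an unadjusted p under 0.05. Of 9 tested immediate early genes, which respond to handling, 0 were called for diet, with Jun at 0.39 (adjusted p = 0.111). Of 8 tested genes that respond to body temperature, a further cue for clocks outside the brain, 1 was called for diet, the heat shock protein gene Hsph1 at 0.73 (adjusted p = 0.0161), and the cold-inducible Cirbp differed by -0.38 (adjusted p = 0.156).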

How the data were processed

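RNA of ground whole tibiae was prepared with a stranded mRNA kit and sequenced on an Illumina HiSeq instrument. Per the labels, the authors used Trim Galore 0.5.0, STAR 2.6.1 (mm10) and StringTie 2.1.3b, with FastQC 0.11.8, MultiQC 1.6 and R 4.1.1, and deposited quantile-normalized FPKM. How 4 technical repeats became 1 column per mouse is not stated in the sources used here. Sorted values of the 12 mice were within 0.00936 FPKM of each other at every rank, read depth is unknown, and no interval for counting error was possible.

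Genes averaging 1 FPKM or more over the mice were fitted on log2(FPKM + 1) with limma 3.58.1 (R 4.3.3), with 4 group means and a trended prior, over all 13590 genes and with Benjamini-Hochberg adjustment in each comparison. The fit was tested on simulated data. Positions came from GENCODE (GRCm38) and promoter sequences from RefSeq. Correlations and motif searches used Python 3.11.15.

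The clock genes, lists and comparisons were chosen with earlier results of these data known. Named were all clock genes, the other loop and turnover genes and up to 4 of each other list by p for diet. The 8 genes most like Dbp, Arntl and Per1 were also named. The labels tie no single mouse to a litter, and p-values cover the spread between these mice.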

Additional observations from a re-analysis of the deposited data

How the results depend on the processing

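With 3 mice in a group and no read depth, small differences could not be resolved, and the hour of collection was not given. No clock gene was called for CR against AL within young or within aged mice under another pseudocount, filter, scaling, weighting, test or choice of mice, but at an unadjusted p there were 2 at each age. For diet over both ages, quality weights per mouse called 2 (Per1, Arntl), leaving out aged AL mouse 14 and aged CR mouse 5 called 2 (the same genes), unadjusted p called 3, and leaving out single mice called 0 to 1, with 1 only without aged CR mouse 5. For age, quality weights called 2 (Noct, Arntl), leaving out both mice called 1 (Noct), unadjusted p called 2, and leaving out single mice called 0 to 1, with 1 only without aged AL mouse 14. For the interaction every fit called 0. The cause of these changes was not tested. Over all genes, the counts called moved further, from 9 to 304 in young mice, 0 to 193 in aged mice, 35 to 923 for diet and 103 to 1798 for age under quality weights, to 159, 48, 441 and 213 without both mice, and to 5, 1, 9 and 44 with no filter. A fit of young mice alone called 74 genes and the unequal-variance test 0. Leaving out single mice gave 0 to 44 in young mice, 0 to 7 in aged mice, 8 to 222 for diet and 21 to 221 for age. Of 940 alternative values of a clock gene's difference, 66 changed sign, none of them called, most often in Clock (15) and Tef (14). No paired analysis was possible by mouse number because the mice carry numbers that no pair of groups shares. The technical repeat numbers mark libraries of 1 mouse. In numerical order, the library labels alternate between CR and AL mice within each age, and all young labels come before all aged ones. The study describes the AL mice as age-matched littermates, but no label names a litter. Whether the label order marks pairs or handling is not stated in the sources used here and was not tested.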
